A study of Homo sapiens with 3 samples.

Results

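The 5 uroplakins (UPK1A, UPK1B, UPK2, UPK3A and UPK3B) and 5 transcription factors of urothelial differentiation (GATA3, FOXA1, ELF3, GRHL3 and KLF5) were followed by RNA-Seq in 5637, an established human bladder cancer cell line. These 10 genes were taken by name from a table of 29960 genes, and each name matched 1 row. The parental cells (5637P) carry the label WT, and the gemcitabine-resistant cells (5637GR) were derived from them by repeated exposure to rising amounts of gemcitabine, a nucleoside analog that blocks DNA synthesis. The labels call this exposure acute, while the study's methods describe a stepwise one. All libraries are labelled untreated, both lines were grown in RPMI with serum, and the sequenced cells were single-cell clones of each line. Counts were used for 3 libraries, namely parental 1, resistant 1 and resistant 2, and the table adds the authors' mean of normalized counts for each line. The authors' means also draw on libraries that were not used here, and they carry no SD.

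Uroplakins are membrane proteins of the urothelium, the epithelium that lines the bladder. UPK1A and UPK1B are tetraspanins that pair with UPK2 and with UPK3A or UPK3B, and the pairs assemble into the rigid plaques that cover the luminal face of umbrella cells. GATA3 and FOXA1 act with the nuclear receptor PPARG in the luminal program of the urothelium, while ELF3, GRHL3 and KLF5 take part in the maturation of its epithelial cells. Basal bladder cancer cells instead express keratins such as KRT5 and KRT14, and loss of GATA3 and FOXA1 is commonly used to describe the basal state.

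Libraries held 14475531 (parental 1), 15836788 (resistant 1) and 17461941 (resistant 2) reads on genes, and counts were scaled to counts per 1e6 reads (CPM) by the TMM method. A count of 3 was treated as the floor, which equals 0.213, 0.183 and 0.173 CPM in the same order. The lines were compared by edgeR's quasi-likelihood test on 15643 genes with enough reads, with p values adjusted by Benjamini-Hochberg. With 1 parental library the spread came from the resistant libraries alone and was shared across genes. Parental 1 was assumed to vary like the resistant libraries. A permutation of the 3 libraries can give no one-sided exact p below 0.333. In simulated data with 1 parental and 2 resistant libraries, 1 of 100 genes with a 2-fold change was called. With a 4-fold change 45 of 100 were called, so a gene without a call may still differ. Of the tested genes, 138 passed an adjusted p of 0.05, or 0.882%. Of these, 47 were higher in the resistant libraries, which was 0.3% of the genes tested, and 91 were lower. The labelled epithelial origin was checked with EPCAM, CDH1, KRT8, KRT18, KRT19 and CLDN4, whose summed level was 7820 CPM in parental 1 and 6970 and 7550 CPM in resistant 1 and 2. PTPRC, the pan-leukocyte marker, had 4, 3 and 2 reads, and the summed endothelial list did not exceed 2.02 CPM. The fibroblast list summed to 172, 155 and 145 CPM in parental 1, resistant 1 and resistant 2. Of it, COL1A1 and COL1A2 were expressed, whereas COL3A1 had 0, 0 and 2 reads and LUM had none. KRT20, the keratin of umbrella cells, had 1 read in parental 1 and none in the resistant libraries.

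Promoter windows are shown for 3 genes because their genes, UPK1B, UPK3B and GRHL3, had the smallest unadjusted p values of the 10. Each window holds the 250 bases before a RefSeq transcript start on GRCh38.p14, written in the direction of the gene, and RefSeq windows were matched for 8 of the 10 genes. The UPK1B window lies at chr3:119173348-119173597, that of UPK3B at chr7:76510302-76510551 and the GRHL3 one, the upstream of 2 windows of this gene, at chr1:24319107-24319356, all on the plus strand.
UPK1B: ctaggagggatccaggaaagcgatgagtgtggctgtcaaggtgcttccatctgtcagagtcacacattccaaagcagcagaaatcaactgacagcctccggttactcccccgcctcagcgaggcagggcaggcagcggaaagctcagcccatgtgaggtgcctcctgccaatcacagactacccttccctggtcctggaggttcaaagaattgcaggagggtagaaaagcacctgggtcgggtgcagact
UPK3B: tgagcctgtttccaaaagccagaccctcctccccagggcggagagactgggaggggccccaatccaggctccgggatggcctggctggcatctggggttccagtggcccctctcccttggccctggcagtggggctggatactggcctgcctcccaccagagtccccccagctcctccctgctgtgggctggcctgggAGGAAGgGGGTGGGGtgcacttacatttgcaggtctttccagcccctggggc
GRHL3: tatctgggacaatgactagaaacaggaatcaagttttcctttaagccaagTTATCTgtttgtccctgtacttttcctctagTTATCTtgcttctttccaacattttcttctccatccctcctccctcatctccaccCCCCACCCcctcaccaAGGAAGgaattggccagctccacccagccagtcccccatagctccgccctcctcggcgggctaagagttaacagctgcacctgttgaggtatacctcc
Capitals mark matches, on either strand, to the motifs AGATAA for GATA factors, TGTTTAC for FOXA factors, AGGAAG for ETS factors (the family of ELF3), AACCNGTT for grainyhead factors, CCCCACCC for KLF factors and TATAAA, the box bound by the general transcription machinery. Among 34943 promoter windows of the same length, these motifs were held by 9.19%, 2.98%, 28.7%, 1.49%, 10.4% and 10.8%, respectively. The GRHL3 window held AGATAA on the minus strand at a pair of places, and CCCCACCC and then AGGAAG further along. The UPK3B window held AGGAAG on the plus strand and, next to it, CCCCACCC on the minus strand. None of the 6 motifs was found in the UPK1B window, and no matches overlapped in these windows.

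**Figure D1:**
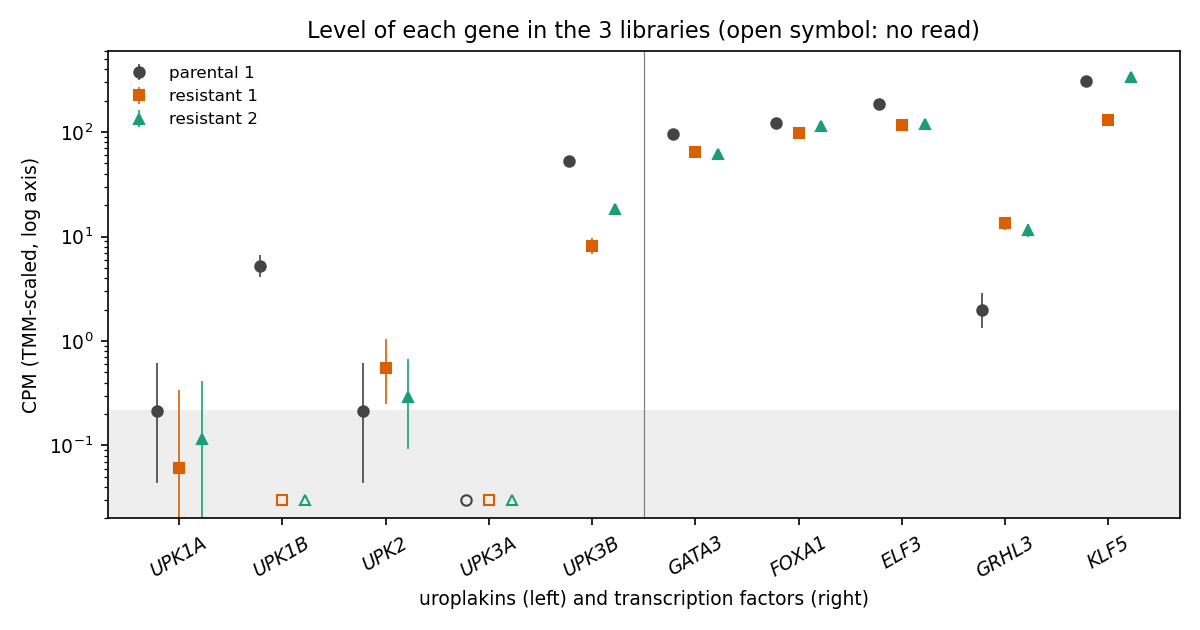
Level of the 5 uroplakins and 5 transcription factors in each library, as TMM-scaled CPM on a log axis with exact 95% Poisson intervals that cover counting error only; open symbols at the bottom mark libraries without a read and the shaded band levels at or under the largest floor, 0.213 CPM. GATA3, FOXA1, ELF3 and KLF5 lie between 61.6 and 336.8 CPM, UPK1B is read in parental 1 alone, and GRHL3 is higher in both resistant libraries than in parental 1.

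The uroplakins were unequally expressed, and a full set of them was not detected. UPK3A, the partner of UPK1B in the plaque, had no read in any of the 3 libraries. Its exact 95% upper counting limit in parental 1 was 0.262 CPM. UPK1A had 3, 1 and 2 reads in parental 1, resistant 1 and resistant 2, at or under the floor in each. UPK2, the other single-pass partner, had 3, 9 and 5 reads, or 0.213, 0.550 and 0.288 CPM. For UPK2 the summed ratio of the resistant libraries to parental 1 was 1.95, with an exact 95% counting interval of 0.544 to 10.6. The start of UPK2 overlaps BCL9L on the opposite strand, which was read at 172.4 CPM in parental 1 and at 210.7 and 283.3 CPM in resistant 1 and 2. The labels describe a strand-specific and an unstranded kit without saying which was used, so UPK2 reads cannot be told apart from those of BCL9L within the overlap. These 3 uroplakins had too few reads to test, so that 7 of the 10 genes entered the comparison.

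UPK1B was lower in both resistant libraries used here. This tetraspanin (ENSG00000114638, chromosome 3, 118892364 to 118924000, plus strand, in the table's coordinates, for which the submitters' processing notes name hg19) had 74 reads in parental 1 and none in resistant 1 or resistant 2. In CPM this was 5.25 (95% counting interval 4.12 to 6.59) against 0 and 0. With each resistant library set at the floor of 3 counts and the parental level taken as exact, UPK1B was at least 29.5-fold lower. The edgeR test, which does not test this bound, gave an adjusted p of 0.00837. UPK1B was the 1 member of 7 tested that passed the threshold in the lower direction, against 0.582% of all tested genes. UPK1B entered the test through its parental reads alone. In these bulk libraries fewer cells that express a gene and less RNA per cell cannot be told apart. Of the 15643 tested genes, 15 had no read in either resistant library, or 0.0959%, and 7 of these had at least as many parental reads as UPK1B, or 0.0447%. The authors' means were 70.1 normalized counts for 5637P and 20.4 for 5637GR, which gave a log2 ratio of -1.73 after 1 was added to each. Since resistant 1 and 2 held no read, the 5637GR mean rests on reads outside these libraries, where the level must lie above that mean. The complete absence of UPK1B reads and the 29.5-fold bound hold for the 2 libraries used here, and not for every 5637GR library.

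UPK3B was the most highly read uroplakin. It (ENSG00000243566, chromosome 7, 76139745 to 76648340, plus strand) was at 53.2 CPM in parental 1, from 749 reads, and at 8.13 and 18.3 CPM in resistant 1 and 2, from 133 and 317 reads. Both resistant libraries lay below parental 1, by -2.71 and -1.54 on the log2 scale. The log2 fold change was -2.01 ± 0.46 (SE), 4.02-fold lower, and UPK3B did not pass the threshold (adjusted p = 0.0932, edgeR; unadjusted p = 0.00132). The adjusted p passed 0.05 under 4 of 6 other settings, and ranged from 8.38e-05 without a filter on low counts to 0.121. Of all tested genes, 1.44% had a log2 fold change at least as low. The authors' means of 686.7 and 200.3 normalized counts gave a log2 ratio of -1.77.

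The row of UPK3B spans a stretch in which 9 other genes of the table lie, several of them pseudogenes. UPK3BP1, a pseudogene copy, had 1, 4 and 6 reads, and UPK3BL1, a near-identical copy elsewhere on the chromosome, had no row. Reads that fit more than 1 copy could have been split or dropped, and the UPK3B level is uncertain to that extent. POMZP3, a fusion gene on the opposite strand within the span, was at 8.23 CPM in parental 1 and at 11.1 and 8.58 CPM in resistant 1 and 2. DTX2P1 was at 3.69 against 2.87 and 3.97 CPM. Neither gene was below parental 1 in both resistant libraries. Some others in the span, with few reads, were below it in both, such as AC004980.10 (9, 6 and 8 reads) and AC005522.7 (6, 4 and 0 reads).

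Among the transcription factors, GATA3, FOXA1, ELF3 and KLF5 were expressed at levels far above those of the low uroplakins. Per kilobase of the table's gene length, they lay between percentile 84.9 and percentile 97.5 of the genes with a read in each library. Ordered by the mean over the 3 libraries, KLF5 was first, at 36.7 to 94.6 CPM per kb over the 3 libraries, followed by FOXA1 (34.2 to 43.1), ELF3 (23.6 to 36.9), GATA3 (up to 31.3) and UPK3B (5.06 to 33.1). Each of these overlapped its neighbour in range. GRHL3 came next at 0.693 to 4.65 CPM per kb, below the lowest UPK3B value, and then UPK1B, UPK2, UPK1A and UPK3A. The order differed between the lines. In parental 1 UPK3B (33.1 CPM per kb) was above GATA3 (31.3) and UPK1B (2.48) was above GRHL3 (0.693). In both resistant libraries UPK1B, without a read, was below UPK2 and UPK1A.

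GATA3 (ENSG00000107485, chromosome 10, 8095567 to 8117161, plus strand), a zinc finger factor of luminal cells, was at 96.2 CPM in parental 1 and at 63.9 and 61.6 CPM in resistant 1 and 2. The resistant libraries were close together and both below parental 1. The log2 fold change of -0.62 ± 0.34 (SE) had an adjusted p of 0.634 (edgeR), and the authors' means of 1276 and 1143 normalized counts gave a log2 ratio of -0.16. ELF3 (ENSG00000163435, chromosome 1, 201977073 to 201986316, plus strand), an epithelial ETS factor, was at 184.4 CPM in parental 1 and at 117.9 and 120.2 CPM in resistant 1 and 2. Its log2 fold change was -0.63 ± 0.35 (SE), also with an adjusted p of 0.634 (edgeR), and the log2 ratio of the authors' means was -0.44. Neither gene passed the threshold, although both resistant libraries used here lay below parental 1 for each of them. For GATA3 the authors' means were closer together, and whether other resistant libraries also lay below was not tested. Of all tested genes, 34.5% had both resistant libraries below parental 1.

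FOXA1 (ENSG00000129514, chromosome 14, 38059189 to 38069245, minus strand), a pioneer factor that opens chromatin for GATA3 and nuclear receptors, was at 123.4 CPM in parental 1 and at 97.8 and 114.2 CPM in resistant 1 and 2. Its log2 fold change was -0.22 ± 0.35 (SE), with an adjusted p of 0.939 (edgeR). The authors' means, 1524 normalized counts for 5637P and 1581 for 5637GR, had the opposite sign with a log2 ratio of 0.05. A direction for FOXA1 therefore could not be given.

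KLF5 (ENSG00000102554, chromosome 13, 73629114 to 73651676, plus strand), a factor of proliferating and maturing epithelium, differed between the resistant libraries. It was at 311.2 CPM in parental 1, at 130.7 CPM in resistant 1 and at 336.8 CPM in resistant 2. Resistant 1 was thus below parental 1 and resistant 2 slightly above it. The ratio of resistant 2 to resistant 1 was 2.58, with an exact 95% counting interval of 2.45 to 2.71. UPK3B had a like ratio of 2.25 (1.83 to 2.77), whereas GATA3 (0.963, 0.883 to 1.05), ELF3 (1.02, 0.957 to 1.08) and GRHL3 (0.864, 0.710 to 1.05) had intervals that included 1. FOXA1 had a smaller ratio of 1.17, with an interval of 1.09 to 1.25 that also excluded 1. These intervals cover counting error only, since each side has 1 library. Of the tested genes, 13.0% were at least 2-fold apart between the resistant libraries. Against parental 1 the log2 fold change of KLF5 was -0.41 ± 0.50 (SE), with an adjusted p of 0.908 (edgeR), and 20.9% of all tested genes had one at least as low. Resistant 1 alone gave -1.25 and resistant 2 alone 0.11.

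GRHL3 was the 1 gene of the 10 that was tested and higher in both resistant libraries. This grainyhead factor of barrier-forming epithelia (ENSG00000158055, chromosome 1, 24645812 to 24690972, plus strand) had 28 reads in parental 1 and 218 and 200 in resistant 1 and 2, or 1.99 against 13.3 and 11.5 CPM. The counting interval of parental 1, 1.32 to 2.87 CPM, did not reach either resistant library. The log2 fold change was 2.64 ± 0.52 (SE), 6.23-fold higher, just short of the threshold (adjusted p = 0.0525, edgeR; unadjusted p = 0.000492). Resistant 1 and 2 lay 2.75 and 2.54 above parental 1 on the log2 scale. The adjusted p passed 0.05 in 5 of 6 other settings, from 0.00104 without a filter on low counts up to 0.113 in limma-voom, which did not pass. Of all tested genes, 1.48% had a log2 fold change at least as high. By the authors' means of 51.7 and 129.4 normalized counts the log2 ratio was 1.31, smaller than in the 3 libraries. The 218 and 200 reads of resistant 1 and 2 lay above that resistant mean. The 28 reads of parental 1 lay below the parental mean. Unless scaling reversed this, resistant libraries outside these lay below 129.4 and parental ones above 51.7 on average. The size of the rise therefore holds for the 3 libraries used here. Whether every resistant library shared the rise was not tested. The end of GRHL3 overlaps STPG1 on the opposite strand, and STPG1 was at 12.8 CPM in parental 1 and 23.1 and 22.1 CPM in the resistant libraries. The part of shared reads in the GRHL3 difference was not tested.

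**Figure D2:**
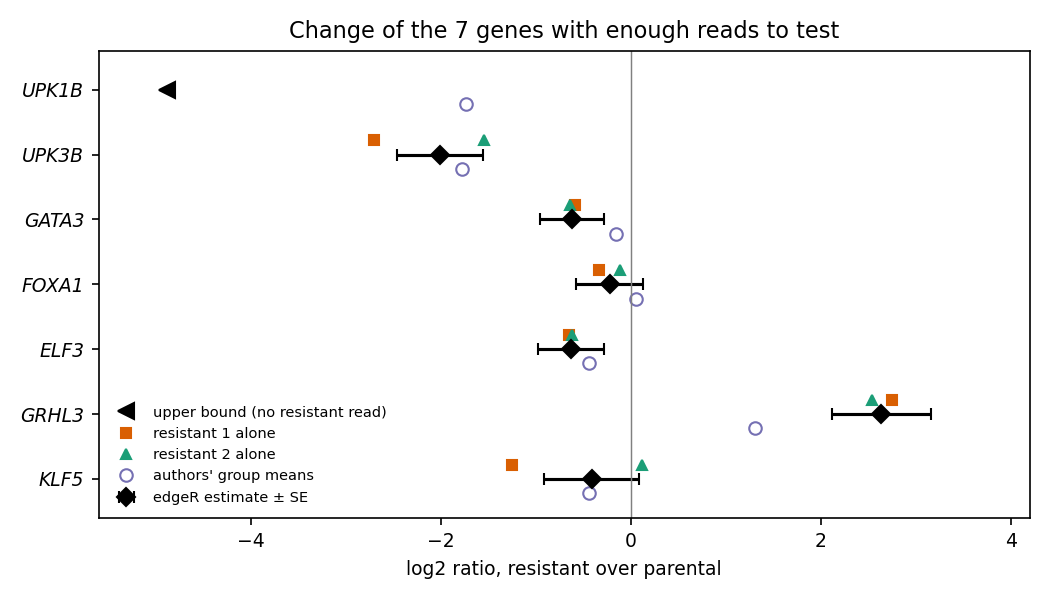
Log2 ratio of resistant to parental for the 7 genes with enough reads to test: diamonds with bars are edgeR estimates ± SE, squares and triangles are resistant 1 and 2 each against parental 1, open circles are the authors' group means after 1 was added, and the arrowhead is the bound for UPK1B with each resistant library at 3 counts. GRHL3 lies to the right of 0 by every measure shown, least far by the authors' means, and UPK3B lies to the left. For KLF5, resistant 1 and 2 fall on either side of 0.

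In all, 5 of the 7 tested genes had both resistant libraries below parental 1, 1 had both above and 1 had them on either side, against 34.5%, 35.2% and 30.3% of all tested genes. The median log2 fold change of the 7 was -0.62, beside 0.03 for all tested genes. Of the 7, 3 had an unadjusted p under 0.05 (edgeR), namely UPK1B, UPK3B and GRHL3, against 9.73% of all tested genes, and 1 of these passed the adjusted threshold. The same 3 genes had an adjusted p under 0.1, against 1.48% of all tested genes. The members were chosen with earlier results of these data known, and UPK1B entered the test through its parental reads alone. These shares are therefore a description and no test of the group.

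The tested genes around each member were examined next. Within 5 Mb on each side, 43 tested genes lay around UPK1B, with a median log2 fold change of 0.06. All 43 had a higher value than UPK1B, but the fitted value of a gene without a resistant read is no estimate. This rank therefore says little about UPK1B. The nearest tested neighbour of UPK1B to the right, B4GALT4, was at 10.6 CPM in parental 1 and at 6.42 and 7.77 CPM in resistant 1 and 2. Around UPK3B the median of 78 genes was 0.21, and all of these were above UPK3B. DTX2, the nearest tested gene to its left, was at 149.0 CPM in parental 1, 164.8 CPM in resistant 1 and 219.8 CPM in resistant 2. Around GRHL3 the median of 137 genes was 0.08, with 2 genes higher than GRHL3. NIPAL3, the nearest to its right, was at 57.5 CPM against 63.8 and 78.7 CPM. Around GATA3, FOXA1 and ELF3 the medians were 0.05, 0.13 and 0.03, with 3 of 43, 7 of 34 and 5 of 79 genes lower than the member. UPK3A, which had no read, lay among 104 tested genes with a median of -0.49. KLF5 was closer to its surroundings, since the median of 14 neighbours was -0.29 and its own value differed from it by -0.12.

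**Figure D3:**
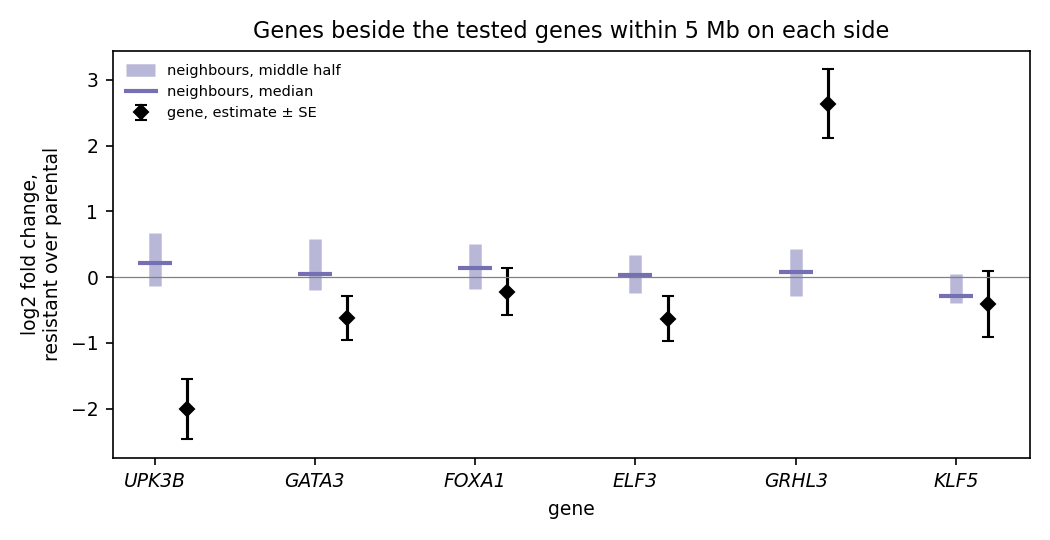
Log2 fold change (resistant over parental, edgeR) of 6 tested genes as diamonds with SE, beside the median and the interquartile range of the tested genes within 5 Mb on each side; UPK1B, which has no resistant read, is left out. UPK3B (-2.01) and GRHL3 (2.64) lie outside the quartiles of their neighbours, and KLF5 (-0.41) lies near its neighbours' median of -0.29.

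Close relatives of the 5 factors were in a wider list of 25 epithelial and urothelial regulators, of which 22 were tested, and the relatives described here were picked after their values were seen. GATA2, a relative of GATA3, had 4 reads in parental 1 and 91 and 68 in resistant 1 and 2, a log2 fold change of 4.02 ± 0.80 (SE) with an adjusted p of 0.0525 (edgeR). With 4 parental reads GATA2 had entered the test through the resistant libraries alone. The authors' means of GATA2 were much closer, at 38.4 and 62.4 normalized counts, with a log2 ratio of 0.68. FOXA2, a relative of FOXA1, was at 3.05 CPM in parental 1 and at 9.84 and 23.4 CPM in resistant 1 and 2 (adjusted p = 0.141, edgeR). KLF4 was at 37.3 CPM against 72.1 and 99.7 CPM (adjusted p = 0.298, edgeR). Other relatives had smaller differences, namely GATA6, KLF3, ELF1 and EHF, with log2 fold changes of 0.25, 0.38, -0.06 and -0.32, none of which passed. ELF5 had 6 reads in parental 1 and none in the resistant libraries, too few to test. The other grainyhead genes had adjusted p values far from the threshold. GRHL1 was at 14.7 CPM against 21.2 and 15.1 CPM (adjusted p = 0.917, edgeR), and GRHL2 was at 98.7 CPM against 77.1 and 60.0 CPM (adjusted p = 0.725, edgeR).

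Of the 22 tested regulators 1 passed the threshold, beside 0.882% of all tested genes. NOTCH3, a receptor of the Notch pathway, fell from 154.0 CPM in parental 1 to 37.1 and 35.1 CPM in resistant 1 and 2, with a log2 fold change of -2.09 ± 0.33 (SE) and an adjusted p of 0.0203 (edgeR). The log2 ratio of the authors' means was -1.12. Resistant 1 and 2 held 607 and 610 NOTCH3 reads, below the authors' resistant mean of 928 normalized counts. Unless scaling reversed this, resistant libraries outside these lay above 928 on average. The size of the NOTCH3 fall therefore holds for the 3 libraries used here, and not for every resistant library. FOXQ1, EHF and CEBPB were the most highly read regulators per kilobase in each library, and their log2 fold changes of 0.37, -0.32 and 0.08 did not pass the threshold. The median of the 22 tested regulators was 0.28, with 11 above parental 1 in both resistant libraries and 8 below, beside 35.2% and 34.5% of all tested genes. Without resistant 2 this median was 0.04.

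Luminal markers gave no call. Of 18 listed genes, 16 had a row and 15 were tested, none passed the adjusted threshold, and 2 of 15 had an unadjusted p under 0.05 (edgeR), beside 9.73% of all tested genes. Those 2 were VGLL1, a cofactor of TEAD factors, at 10.5 CPM in parental 1 against 2.75 and 0.864 CPM (adjusted p = 0.139), and KRT7, a simple keratin, at 1988 CPM against 1047 and 867.7 CPM (adjusted p = 0.302). PPARG was at 173.4 CPM in parental 1 and at 137.9 and 142.5 CPM in resistant 1 and 2. KRT19, KRT7 and KRT8 were the most highly read luminal markers per kilobase in each library. The median log2 fold change of the 15 was -0.38, with 8 genes below parental 1 in both resistant libraries and 2 above, beside 34.5% and 35.2% of all tested genes.

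Basal markers were a second reference for the luminal genes. KRT5, the defining keratin of basal cells, fell from 271.7 CPM in parental 1 to 9.78 and 13.8 CPM in resistant 1 and 2, a log2 fold change of -4.52 ± 0.38 (SE) with an adjusted p of 0.000551 (edgeR). The authors' means were 11540 normalized counts for the parental line and 2047 for the resistant line, a log2 ratio of -2.49. Resistant 1 and 2 held 160 and 240 reads, far below that resistant mean. The resistant mean thus rests mainly on reads outside these libraries, where the level must lie above it. The fall below parental 1 was therefore shown for resistant 1 and 2, and not for every resistant library. KRT5 was the 1 gene of 13 tested basal markers that passed in these libraries, beside 0.882% of all tested genes. By the authors' means KRT6A, KRT6B and KRT14 fell as well, with log2 ratios of -5.37, -3.34 and -1.78. Every tested basal marker had a log2 ratio below 0 by these means. Parental 1 held 3829 KRT5 reads and 150 KRT6A reads, far below the authors' parental means of 11540 and 2111 normalized counts. For KRT5 and KRT6A parental 1 therefore did not stand for the parental line. By the mean CPM per kb over the 3 libraries COL17A1, CDH3 and CD44 led the basal list, with log2 fold changes of -0.21, 0.21 and -0.19, none of which passed. In parental 1 alone KRT5 was second in the list, at 107.4 CPM per kb after COL17A1 at 109.9. The median of the 13 was -0.21, but it was -0.63 by the authors' means and -0.61 without resistant 2. The luminal and the basal list thus each had a median below 0 in these libraries.

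Genes that carry uroplakin vesicles to the surface or take plaques up again gave no call. Of 11 such genes 10 had a row and 9 were tested. SYTL2, a vesicle-tethering partner of RAB27 proteins, had an unadjusted p under 0.05, at 4.54 CPM in parental 1 and 14.4 and 7.31 CPM in resistant 1 and 2 (adjusted p = 0.498, edgeR). By the mean CPM per kb over the 3 libraries VAMP8, RAB11A and RAB8A led the list, although STX3 was above RAB8A in both resistant libraries. The log2 fold changes of the first 3 were -0.03, -0.34 and -0.28, and none passed the threshold. SNX31, a sorting nexin that binds uroplakins, had 1 read in resistant 2 and none in the other libraries. The median of the 9 was 0.13, and -0.03 by the authors' means.

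**Figure D4:**
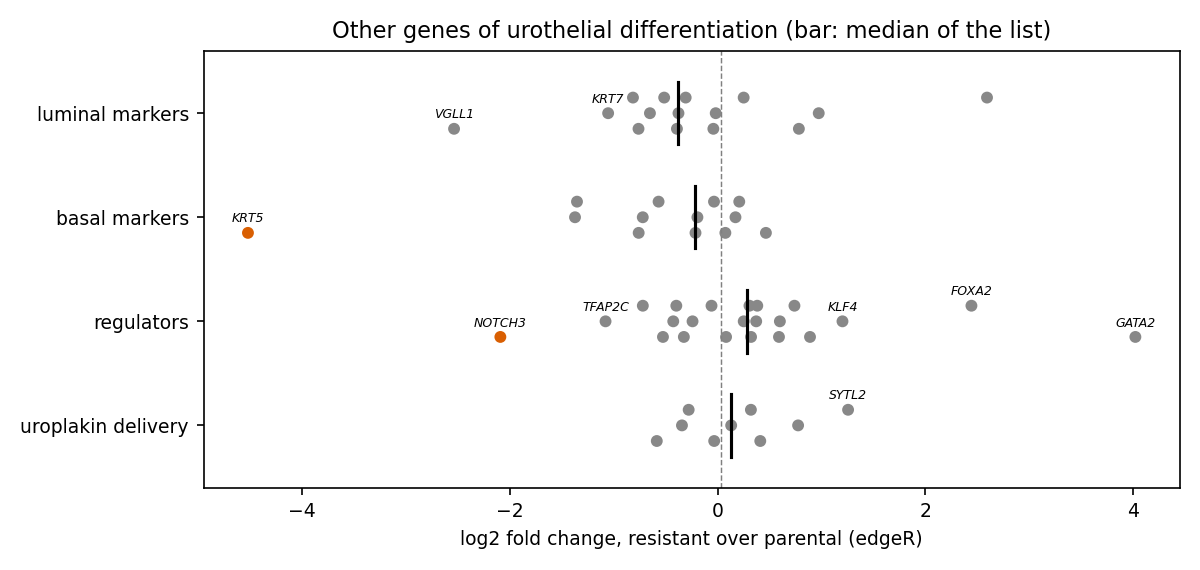
Log2 fold change (resistant over parental, edgeR) of each tested luminal marker, basal marker, regulator and gene of uroplakin delivery; vertical bars are list medians, the dashed line is the median of all tested genes (0.03), and genes with an unadjusted p under 0.05 are named. KRT5 (-4.52) and NOTCH3 (-2.09), in orange, passed an adjusted p of 0.05.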

How the data were processed

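RNA-Seq of single-cell clones of 5637P and 5637GR was analyzed from 1 table. The authors deposited raw read counts per gene and library, without normalization, and the group signal, the authors' mean of counts after scaling each library by DESeq2. The aligner, the counting tool and its strand setting are not given in the sources used here, and the submitters' processing notes name hg19 and CASAVA 1.8. Counts of 3 labelled libraries were used. The 6 per-library columns that match no labelled sample, 3 FPKM columns and 3 columns of the authors' own comparison (fold change, p and adjusted p) were not used.

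Counts were filtered by filterByExpr, scaled by TMM and fitted by edgeR 4.0.16 (glmQLFit, R 4.3.3), with 1 residual degree of freedom. The SE is the log2 fold change divided by the root of F. Intervals are exact and cover counting error only. P values rest on the spread between the 2 resistant libraries, moderated towards a trend over all tested genes (median prior degrees of freedom 9.04). Levels between genes used CPM per kilobase of the deposited length. Log2 ratios of the authors' means used a pseudocount of 1. Alternatives were RLE, total count and upper-quartile scaling, no filter, DESeq2 1.42.0, limma-voom (limma 3.58.1), each resistant library left out, the authors' means, subtraction of the neighbourhood median, and other thresholds. The fit was tested on simulated data with the library sizes of these data and a common dispersion of 0.0791. Genes named were the 10 members, list genes past the threshold, the 3 highest per kilobase in each list, and overlapping or neighbouring genes, and any other was picked after its values were seen. The members and lists were chosen with earlier results of these data known. List genes CD24, UPK3BL1, KRT1, MAL, DCN and PECAM1 had no row and were not used here. The smooth muscle markers summed to 2.06, 1.28 and 2.19 CPM and the leukocyte markers to 0.568, 1.59 and 1.27 CPM in parental 1, resistant 1 and resistant 2. Figures used matplotlib 3.10.9.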

Additional observations from a re-analysis of the deposited data

How the results depend on the processing

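The number of genes called depended on the processing. Against 138 of 15643 genes with the filter and TMM (0.882%), edgeR called 235 with RLE size factors (1.5%), 230 with total counts (1.47%), 178 with upper-quartile factors (1.14%) and 534 of 26434 without a filter (2.02%), DESeq2 called 245 (1.57%) and limma-voom 78 (0.499%). Of the 10 genes described, 1 was called, against 3 with RLE factors, total counts, no filter or DESeq2, and 2 with upper-quartile factors. The additional genes were GRHL3 in all of these and UPK3B in all but the upper-quartile setting. An adjusted p under 0.1 (1.48% of all tested genes) or an unadjusted p under 0.05 (9.73%) also gave 3. UPK1B was called in the 6 settings with a test, as were KRT5 and NOTCH3. The cause of the changed counts was not tested.

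No tested gene of the 10 changed direction under the 6 settings with a test, but FOXA1 had the opposite sign by the authors' means and KLF5 without resistant 1. Their median of -0.62 was -0.56 with total counts, -0.57 with upper-quartile factors and -0.44 by the authors' means, and -0.64 to -0.62 with 1 resistant library left out. For luminal markers the median was -0.31 with total counts and -0.31 by the authors' means, and -0.38 to -0.29 with 1 resistant library left out. For basal markers it was -0.63 by the authors' means and -0.61 to -0.17 with 1 resistant library left out. For regulators it was 0.074 without a filter, 0.029 by the authors' means and 0.042 to 0.30 with 1 resistant library left out. For uroplakin delivery it was 0.18 with total counts, 0.18 with upper-quartile factors, 0.22 without a filter, 0.082 in limma-voom, -0.028 by the authors' means and 0.14 to 0.16 with 1 resistant library left out. With 1 library left out, 1 against 1 remained and no test was made. No paired analysis was possible because the parental group has 1 library. Depth limits UPK1A, UPK2 and UPK3A, which had too few reads to compare.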
